A study of Mus musculus with 20 samples.

Results

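The effect of p38α loss was examined in complete, unsorted mouse melanomas by comparing 3 B;p38α tumors with 5 B tumors, which are 8 of the 20 arrays of the study and were chosen by their sample titles. B;p38α tumors came from Tyr::CreERT2;BrafCA/CA;p38αlox/lox mice, and B tumors from Tyr::CreERT2;BrafCA/CA mice. Both groups carried the same tamoxifen-inducible Cre and the same Braf allele, and pups of both received 4-hydroxytamoxifen in acetone on the skin (5 mg/ml) on postnatal days 2.5 and 3.5 and 1 UVB dose of 6.24 kJ per square meter on day 3.5. Tumors were excised at their endpoint size. The tyrosinase promoter restricts recombination to melanocytes, so in B;p38α tumors the floxed gene is expected to stay intact in other cell types. The remaining 12 arrays hold CD45+ and CD45- cells separated magnetically from tumors of the same 2 genotypes, with 3 arrays per group. No label ties a tumor to an animal, and the p-values therefore measure only how far these replicate samples spread. In a bulk tumor, fewer cells of a type and less RNA per cell cannot be told apart.

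The kinase p38α, encoded by Mapk14, is a stress-activated protein kinase switched on by the upstream kinases MKK3 and MKK6, which Map2k3 and Map2k6 encode. It phosphorylates transcription factors and the kinase MK2, through which it stabilizes the mRNAs of inflammatory cytokines, and it also restrains the cell cycle. Melanomas driven by the BRAF V600E oncoprotein depend on the neighboring MEK and ERK branch of the MAP kinases.

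Values are log2 expression levels, and a difference of 1 is a doubling. Among the complete tumors the array medians lay between 6.92 and 7.02, and the number of arrays limits the precision. The median gene had a 95% interval of ±0.47 on its genotype difference, and 84.5% of 19504 genes had an interval that lay wholly between -1 and 1. Several arrays stood apart. B replicate 1 had a keratinocyte list mean of 7.29, against 4.65 to 5.59 in the 3 B;p38α arrays and 4.69 to 5.12 in the other B arrays, and it was also highest in the pigment genes Tyrp1 (8.44) and Dct (8.70). B replicate 4 correlated best with B;p38α replicate 3 (r = 0.983 across genes) and B;p38α replicate 2 (0.9778), and with no B array above 0.9739. The labels do not say what sets this array apart, and the cause was not tested. B;p38α replicate 1 had the lowest skeletal muscle signal (list mean 5.58, against 7.57 and 9.42 in the other B;p38α arrays and 8.59 to 9.31 in B arrays). The 6 measured genes of a short Y-linked list averaged 2.89, 3.39 and 2.92 in B;p38α tumors, against 5.83, 3.39, 3.06, 5.98 and 2.58 in B tumors, so that only B replicates 1 and 4 were high. Among melanocyte-lineage genes, the transcription factor Sox10 was at 11.71, 10.59 and 10.74 in B;p38α tumors, against 11.32, 10.90, 10.72, 10.63 and 10.58 in B tumors. The table holds no detection calls, so the absence of a marker could not be judged.

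Mapk14, the targeted gene, was at 9.95, 9.57 and 9.86 in B;p38α tumors, against 10.16, 10.06, 10.04, 10.15 and 9.89 in B tumors. B;p38α replicates 2 and 3 lay below every B tumor, while replicate 1 exceeded the lowest B value, so the groups overlapped. The difference was -0.27 (SE 0.15, 95% interval -0.61 to 0.08), with an adjusted p of 0.807 by limma and a two-sided exact permutation p of 0.0714, where 0.0357 is the smallest p that 3 against 5 arrays allow. The table does not say which exons the probes of this row cover, so the row checks the labels only if they lie in the deleted part. The 8 measured genes nearest to Mapk14 had differences between -0.18 (Clps, pancreatic colipase) and 0.21 (Pnpla1, an enzyme of skin barrier lipids), and none passed. Clpsl2 and Lhfpl5 each had a difference of 0.03, Srpk1, a splicing factor kinase, 0.10, Brpf3, a chromatin reader, 0.07, Bnip5 0.18, and Mapk13, which encodes the isoform p38δ, -0.11.

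Across all genes no difference between the genotypes passed Benjamini-Hochberg adjustment in limma (0 of 19504, 0%), and the smallest adjusted p was 0.257. Without adjustment, 555 genes (2.85%) were higher and 734 genes (3.76%) were lower in B;p38α tumors at p under 0.05, 6.61% in either direction. The groups did not overlap for 375 higher genes (1.92%) and 495 lower genes (2.54%), 4.46% in all. Of all genes 48.2% had a difference above 0 and 51.8% below 0, and the counts within gene groups are to be read beside these shares. The median difference over all genes was -0.01, and 1.53% of genes differed by over 1 in either direction. Pygl, the liver-type glycogen phosphorylase, held the smallest p and is named here after its values were seen. It was at 6.96, 6.96 and 6.89 in B;p38α tumors, against 7.98, 8.08, 7.93, 8.05 and 8.22 in B tumors, a difference of -1.11 (SE 0.14), and each group was tight and well separated from the other. Without B replicate 4, 49 genes passed (0.251%), 42 of them higher (0.215%), and Pygl (adjusted p = 0.029) was among the 7 lower ones (0.0359%). Most of the 49 were pheromone receptor genes described below. For these, B replicate 4 lay at the level of the B;p38α tumors, so their passes are no independent support.

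Among genes without overlap and with an unadjusted p under 0.01, the 15 largest positive differences were those of the genes named here. None of them passed adjustment over all genes (adjusted p 0.382 to 0.716). Rbm46, an RNA-binding protein of germ cells, was at 7.23, 6.51 and 7.68 in B;p38α tumors, against 5.71, 5.95, 4.37, 4.39 and 3.89 in B tumors (difference 2.28, SE 0.48). Duxbl2 and Duxbl3, near-identical copies of a double homeobox gene whose rows held the same values and cannot be told apart, were at 8.73, 7.88 and 8.30, against 5.81 to 7.09 in B tumors (difference 1.69, SE 0.31). Hjurp, the chaperone that loads the centromeric histone CENP-A, was at 10.26, 10.42 and 10.12 in B;p38α tumors, against 8.64, 8.58, 8.59, 8.27 and 9.39 in B tumors (difference 1.57, SE 0.24, adjusted p = 0.382). The Hjurp values of the deleted tumors lay close together and the highest B value was replicate 5. Pttg1, which encodes securin, the inhibitor of separase, was at 9.73, 9.91 and 10.03, against 9.08, 7.58, 8.77, 7.87 and 9.16 in B tumors (difference 1.40, SE 0.36). Cxcl9, an interferon-induced chemokine for T cells, was at 9.36, 8.33 and 8.11, against 7.18, 6.65, 7.95, 8.0 and 7.38 in B tumors (difference 1.17), with a narrow gap between the groups. The differences of the others included those of Vxn (1.61), the chemokine-like Tafa5 (1.41), the adhesion molecule Cntn6 (1.35), the synapsin Syn3 (1.27), the synaptic adhesion molecule Lrrtm2 (1.24) and the protocadherin Pcdhb15 (0.96). Dzank1 (1.03), the matrix protein gene Crtac1 (0.99) and the centrosomal Cep126 (0.98) completed the 15. Dzank1 passed in limma without B replicate 4 (difference 1.18, adjusted p = 0.0349). That array, at 5.45 against 4.53 to 4.75 in the other B tumors, lay nearest to the deleted tumors, so the pass is no independent support.

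The 15 largest negative differences by the same rule included 5 major urinary protein genes. Myh4, the fast myosin heavy chain of skeletal muscle, was at 3.94, 6.95 and 8.45 in B;p38α tumors, against 11.15, 10.56, 11.17, 9.73 and 9.76 in B tumors (difference -4.03, SE 0.83, adjusted p = 0.707). The spread within the deleted genotype was large, and even its highest value lay below every B tumor. Klk1b22, a tissue kallikrein, was at 4.14, 4.09 and 4.67, against 7.65, 7.81, 6.23, 7.84 and 4.68 in B tumors (difference -2.54), so B replicate 5 sat at the level of the deleted tumors. Serpina3n, a secreted inhibitor of serine proteases of the acute phase, was at 10.17, 9.79 and 10.33, against 11.56, 11.34, 11.37, 12.19 and 11.79 in B tumors (difference -1.55, SE 0.23, adjusted p = 0.382, and -1.42 with adjusted p = 0.029 without B replicate 4). Sfrp2, a secreted modulator of WNT signaling, was at 6.05, 6.62 and 6.89, against 7.83, 8.79, 8.30, 7.6 and 10.10 in B tumors (difference -2.01). Dok2, an adaptor protein of blood cells, was at 6.24, 7.2 and 7.2, against 8.44, 8.67, 8.85, 8.07 and 9.57 (difference -1.84, SE 0.34), and its groups were well apart. The flagellin receptor gene Tlr5 had a difference of -1.52. Lyve1 (-2.37), F13a1 (-1.70) and the CC chemokines Ccl6 (-1.64) and Ccl9 (-1.56), along with Mup9, Mup19, Mup2, Mup22 and Mup3, are described with their groups below.

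**Figure D1:**
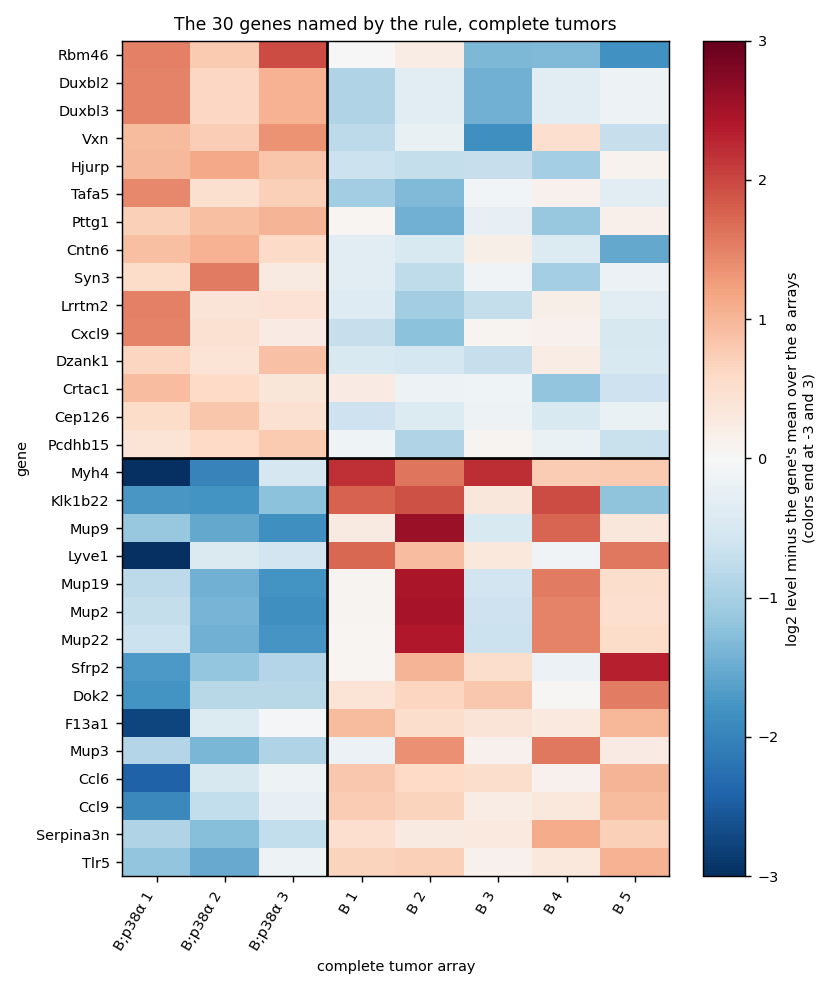
Levels of the 30 genes named by the rule in each complete tumor array, as log2 level minus the gene's mean over the 8 arrays (red higher, blue lower, colors ending at -3 and 3), with the 3 B;p38α arrays left of the 5 B arrays. The rule kept genes without overlap, so every gene separates the groups by construction, while B;p38α replicate 1 is the lowest array for Myh4, Lyve1, F13a1, Ccl6 and Ccl9.

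In the p38 pathway itself the genes for the 2 direct activators differed in opposite directions. Of 18 measured genes for p38 isoforms and upstream kinases, 9 were higher and 9 lower, and an unadjusted p under 0.05 was reached by 3 higher genes and 1 lower gene, none after adjustment, with a median of -0.02. Map2k6, encoding MKK6, was at 8.0, 8.09 and 7.80 in B;p38α tumors, against 7.11, 6.77, 7.19, 7.07 and 7.19 in B tumors (difference 0.90, SE 0.16, adjusted p = 0.604). Map2k3, encoding MKK3, was at 7.36, 7.51 and 7.28, against 7.88, 8.05, 7.90, 7.83 and 8.14 in B tumors (difference -0.58, SE 0.15, adjusted p = 0.707). Neither gene's groups overlapped. In CD45+ and CD45- cells the differences were 0.38 and 0.65 for Map2k6 and 0.09 and 0.13 for Map2k3. The upstream kinase gene Map3k6 (-0.55) and the stress sensor gene Gadd45g (-0.50) overlapped between groups. Both had the opposite sign in CD45+ and CD45- cells, with 0.79 and 1.17 for Map3k6 and 0.74 and 0.84 for Gadd45g.

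Among 17 substrates and phosphatases of the pathway, 13 were lower and 4 higher (median -0.11), and an unadjusted p under 0.05 was reached by 2 lower genes and 1 higher gene. Hspb1, the small heat shock protein phosphorylated through MK2, was at 7.93, 7.90 and 8.41 in B;p38α tumors, against 9.47, 9.68, 9.47, 8.33 and 9.70 in B tumors (difference -1.25, SE 0.31, adjusted p = 0.707). B replicate 4 lay inside the range of the deleted tumors. The call depended on it, since omitting this overlapping array gave -1.50 with an adjusted p of 0.0147, which is no independent support. Rps6ka5, encoding the nuclear kinase MSK1, was higher by 0.59 with overlap. In CD45+ and CD45- cells Hspb1 differed by 0.52 and 0.68, and Rps6ka5 by -0.49 and -0.15. Of 20 inflammatory transcripts known to be stabilized through p38 and MK2, 13 were higher and 7 lower with a median of 0.07, and the only 1 at an unadjusted p under 0.05 was lower. The macrophage chemokine Ccl3 (0.90), the cytokine Il1b (0.75) and the interferon-induced Cxcl10 (0.62) were higher by these amounts and overlapped between the groups.

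ERK pathway output had a median of 0.09 over 19 genes and none at an unadjusted p under 0.05, with Myc, a growth transcription factor, at -0.54 and Ier3, an immediate early ERK target, at 0.47. Mitosis and spindle genes had a median of 0.02 over 29 genes, and only Hjurp and Pttg1, both described above, reached an unadjusted p under 0.05. The range of that median was -0.30 to 0.44 when each array was left out in turn. DNA replication genes had a median of -0.02, with E2f1, a transcription factor of S phase entry, at -0.66. Pigmentation genes had a median of -0.44 over 19 genes, which became 0.08 without B replicates 1 and 4, the 2 arrays with high Y-linked expression. It was -0.07 without B replicate 1 alone and -0.41 without B replicate 4 alone. Within that list the endothelin receptor gene Ednrb (-1.31), the melanosomal glycoprotein gene Gpnmb (-0.86) and the melanosomal exchanger gene Slc24a5 (0.71) overlapped between groups. Of 17 neural crest and dedifferentiation genes, 10 were lower and 7 higher (median -0.17), and an unadjusted p under 0.05 was reached by 3 lower genes and 1 higher gene. Among them, the water channel gene Aqp1 was at -1.03 and the ecto-nucleotidase gene Nt5e at 0.80. Pmaip1, which encodes the p53 target NOXA, was at 6.13, 6.71 and 6.28 in B;p38α tumors, against 4.94, 4.81, 5.47, 5.66 and 6.30 in B tumors (difference 0.94), and only B replicate 5 reached the deleted tumors.

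Stress metabolism genes were mostly lower in complete tumors. Of 21 hypoxia and glycolysis genes 17 were lower (median -0.24, 4 at an unadjusted p under 0.05), and the list means did not overlap at 8.54, 8.72 and 8.70 in B;p38α tumors, against 9.03, 8.77, 8.81, 8.88 and 9.0 in B tumors. Hk2, the inducible hexokinase, was at 6.05, 6.05 and 6.57, against 6.87, 7.16, 6.79, 7.22 and 7.06 in B tumors (difference -0.80, SE 0.18). P4ha1, a prolyl hydroxylase of collagen, had a difference of -0.54 without overlap, while the vasodilator peptide gene Adm (-1.08) and the phosphofructokinase gene Pfkl (-0.68) overlapped. Of 16 targets of the antioxidant factor NRF2, 12 were lower (median -0.21, 5 at an unadjusted p under 0.05). The list means were 8.47, 8.46 and 8.53 in B;p38α tumors, against 8.81, 8.82, 8.60, 8.62 and 8.76 in B tumors, again without overlap. Its largest members were the heme oxygenase gene Hmox1 (-0.87), the malic enzyme gene Me1 (-0.74), the glutathione transferase gene Gstm1 (-0.62) and the cystine transporter gene Slc7a11 (-0.56). Sorted cells did not share these medians. In CD45+ and CD45- cells the medians were 0.25 and -0.04 for the hypoxia list and 0.07 and 0.01 for the NRF2 list. In CD45+ cells Adm (1.06), Pfkl (0.62) and Hk2 (0.30) were higher, and P4ha1 differed by -0.01. In CD45- cells Hk2 (-0.48), P4ha1 (-0.16) and Adm (-0.08) were lower, and Pfkl (0.25) was higher. Of the NRF2 members, Slc7a11 (-2.06), Hmox1 (-0.54) and Gstm1 (-0.02) were lower in CD45- cells, and Me1 (0.63) was higher. The same genes differed by -0.14, 0.12, -0.03 and -0.22 in CD45+ cells.

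Markers of resident and alternatively activated macrophages, the tissue macrophages known for clearance and repair, were lower throughout. All 18 measured markers were lower in B;p38α tumors, 14 of them at an unadjusted p under 0.05 and 8 without overlap, with a median of -1.04, and none passed adjustment over all genes. The list means were 6.8, 8.38 and 8.50 in B;p38α tumors, against 9.37, 9.02, 9.01, 8.71 and 9.50 in B tumors. The groups did not overlap, but B;p38α replicate 1 was much the lowest. Without it 17 of 18 markers were lower, with a median of -0.74. At an unadjusted p under 0.05, 9 of 18 were then lower, against 3.55% of all genes. Lyve1, a hyaluronan receptor of such macrophages and of lymphatic vessels, was at 5.54, 8.53 and 8.4 in B;p38α tumors, against 10.70, 9.91, 9.28, 8.87 and 10.56 in B tumors. Retnla, a secreted product of alternatively activated macrophages, was at 5.26, 9.94 and 10.01, against 10.52, 11.26, 11.52, 10.98 and 11.18 in B tumors (difference -2.69, SE 0.92). The lectin gene Cd209f was at 6.98, 10.52 and 10.30, against 11.56, 11.10, 11.00, 10.69 and 11.27 in B tumors (difference -1.85). For both genes replicates 2 and 3 of the deleted genotype lay just below the lowest B tumor, far above replicate 1. F13a1, the macrophage-made A subunit of coagulation factor XIII, was at 7.51, 9.85 and 10.22, against 11.20, 10.79, 10.65, 10.55 and 11.25 in B tumors.

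General leukocyte genes (13 of 14 lower, 5 at an unadjusted p under 0.05, median -0.31) and general macrophage genes (17 of 19 lower, 7 at an unadjusted p under 0.05, median -0.32) differed less. Without B;p38α replicate 1 the macrophage median was -0.10 and 12 of 19 were lower. Itgb2, the shared chain of the leukocyte integrins, was at 7.73, 7.90 and 7.75 in B;p38α tumors, against 8.22, 8.67, 9.14, 8.35 and 9.17 in B tumors (difference -0.92, SE 0.24), without overlap. The lysosomal protein gene Laptm5 (-0.85), the GTPase gene Rac2 (-0.82), the tetraspanin gene Cd37 (-0.87) and the complement gene C1qc (-0.86) had similar sizes, and so did the macrophage surface genes Adgre1 (-0.83) and Itgam (-0.72) and the complement gene C1qa (-0.66). Ptprc, which encodes CD45 itself, overlapped between the groups. It was at 9.41, 10.30 and 9.79 in B;p38α tumors, against 9.46, 9.68, 10.46, 10.17 and 10.18 in B tumors. The chemokine Ccl9 was at 8.07, 9.28 and 9.76 in B;p38α tumors, against 10.78, 10.67, 10.22, 10.33 and 10.96 in B tumors, and Ccl6 at 7.75, 9.68 and 10.01, against 10.98, 10.77, 10.69, 10.30 and 11.19. In both, replicate 1 of the deleted genotype was again the lowest array. Neutrophil genes were lower in 15 of 17 (median -0.35), led by the granule protein gene Ngp (-1.51).

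NK cell receptor genes differed in the other direction, with 15 of 17 higher, 4 at an unadjusted p under 0.05 and a median of 0.46. The list means were 5.42, 5.39 and 5.59 in B;p38α tumors, against 4.38, 4.82, 5.01, 5.47 and 5.08 in B tumors, where replicate 4 alone lay among the deleted tumors. In sorted cells the median of the same list was negative, at -0.33 in CD45+ and -0.84 in CD45- cells, and Klrb1c differed by -0.32 and 0.09. Type 1 vomeronasal receptors outside chromosome 7, described below, had similar medians there (-0.37 and -0.72). Their mean level was highest in B CD45+ replicate 2 (4.42) and B CD45- replicate 1 (5.32). These arrays had the narrowest interquartile ranges of their compartments (3.41 and 2.95). The part of this shift in the NK medians of sorted cells was not tested. Klrb1c, the NK1.1 antigen that some mouse strains lack, was at 7.32, 7.51 and 7.74, against 4.35, 4.62, 3.79, 7.47 and 6.0 in B tumors (difference 2.28, SE 0.70, adjusted p = 0.716). The related receptor genes Klra7 (0.97), Klrb1b (0.93) and Klri2 (0.83) belong to multigene families whose probes may share signal. The activating receptor gene Ncr1, a defining NK marker, was at 6.11, 6.26 and 6.46, against 4.59, 6.38, 6.47, 6.86 and 5.54 in B tumors, inside their range. T cell genes had a median of 0.15 over 15 genes, with Cd5 at 0.81, the exhaustion factor gene Tox of the checkpoint list was at 0.76, and interferon response genes had a median of -0.03 over 24 genes.

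Muscle and adipocyte genes varied strongly between arrays, and where in the samples their signal arose was not tested. Of 24 fast skeletal muscle genes, 23 were lower in B;p38α tumors (median -1.43), but only 2 reached an unadjusted p under 0.05. The list means were 5.58, 7.57 and 9.42 in B;p38α tumors, against 8.72, 9.31, 9.21, 8.74 and 8.59 in B tumors, so replicate 3 of the deleted genotype exceeded every B tumor. Without B;p38α replicate 1 the median was -0.36. Pvalb, a calcium buffer of fast fibers (-2.21), the myosin light chain gene Myl1 (-2.15) and skeletal actin Acta1 (-2.03) were all lowest in B;p38α replicate 1. Perinatal myosin Myh8 (-2.22), from a separate list of myogenic genes, was lowest there too. Of 18 adipocyte genes 17 were lower (median -0.76), with 8 at an unadjusted p under 0.05. Adipoq, the fat hormone adiponectin, was at 6.65, 5.46 and 6.62 in B;p38α tumors, against 9.15, 10.08, 6.19, 9.54 and 7.38 in B tumors, where replicate 3 lay within the range of the deleted tumors. The lipid droplet gene Cidec (-1.91), resistin Retn (-1.80) and leptin Lep (-1.70) showed the same overlap. The part of muscle and fat tissue in the macrophage and matrix values was not tested.

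**Figure D2:**
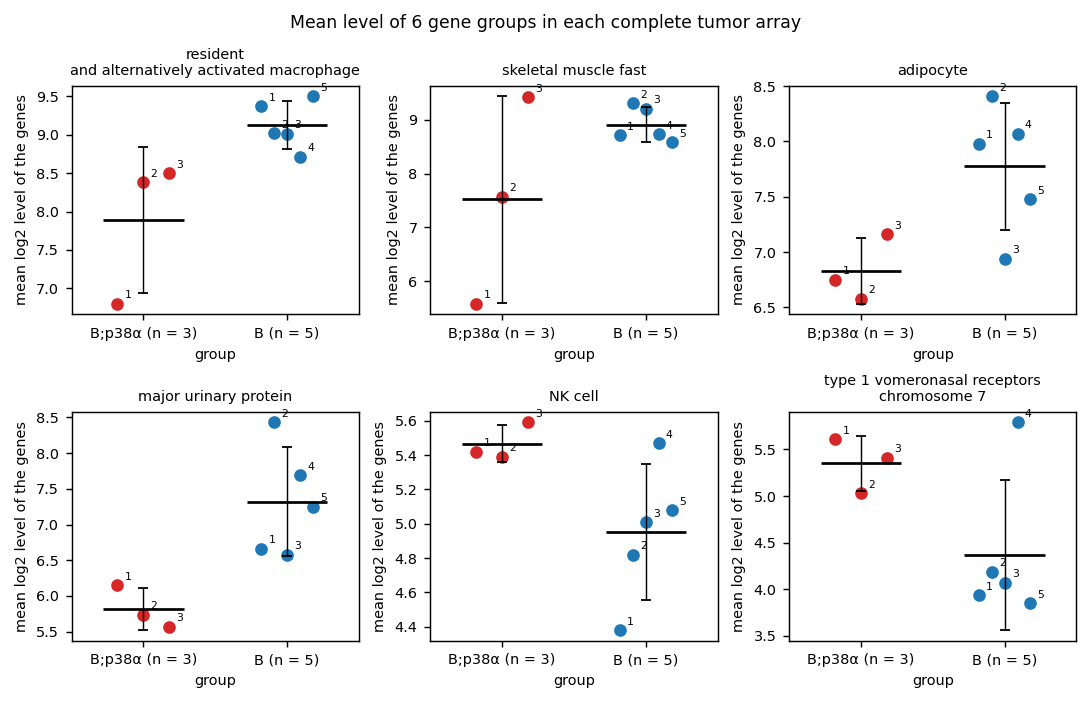
Mean log2 level of 6 gene groups in each complete tumor array, with 3 B;p38α arrays left of 5 B arrays, each point numbered by replicate and bars giving the mean and SD. The macrophage and major urinary protein means do not overlap between the genotypes, muscle is spread by B;p38α replicates 1 and 2, and B replicate 4 lies with the B;p38α arrays for the NK and vomeronasal receptor groups.

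Stromal genes were mostly lower. Elastic fiber genes were lower in 14 of 15 (median -0.43, 5 at an unadjusted p under 0.05) and collagen and matrix genes in 22 of 24 (median -0.34, 5 at an unadjusted p under 0.05). Fbln5, a fibulin required for elastic fibers, was at 7.65, 8.02 and 8.01 in B;p38α tumors, against 9.53, 9.49, 8.32, 9.86 and 9.70 in B tumors (difference -1.48, SE 0.32, adjusted p = 0.707). Only B replicate 3 was near the deleted tumors. The difference was -1.75 (adjusted p = 0.0471) without it, which again omits the array nearest to the other genotype. Fbln2, another fibulin, was at 8.53, 7.69 and 7.25, against 8.86, 8.87, 9.30, 9.05 and 10.03 in B tumors (difference -1.40, SE 0.34). Fbln5 and Fbln2 were also lower in CD45+ cells (-1.31 and -0.66) and in CD45- cells (-0.94 and -0.58), each at an unadjusted p under 0.05. The elastic fiber list as a whole went the other way in sorted cells, with a median of 0.40 in CD45+ and 0.40 in CD45- cells, and so did its members Lox (0.85 and 1.49) and Mfap4 (0.27 and 0.96). The collagen and matrix list had medians of 0.35 and 0.02 there. The crosslinking enzyme gene Lox (-1.32), the microfibril gene Mfap4 (-1.20), and the collagen genes Col14a1 (-0.99), Col6a3 (-0.73), Col1a1 (-0.68) and Col6a2 (-0.63) were lower by these amounts in complete tumors. The fibroblast genes Dpt (-1.55) and Clec3b (-0.73), of which the second did not overlap, belong to a list with a median of -0.38. Without B;p38α replicate 1, 12 of the 24 collagen and matrix genes reached an unadjusted p under 0.05 and were lower, against 3.55% of all genes. The median was then -0.55, the lowest when each array was left out in turn. The highest was -0.12, without B;p38α replicate 2.

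Vessel markers were lower as well. Blood endothelial genes were lower in 15 of 16 (median -0.51) and lymphatic endothelial genes in 11 of 12 (median -0.54). The lymphatic list means did not overlap, at 6.94, 7.03 and 7.07 in B;p38α tumors, against 7.67, 7.89, 7.76, 7.23 and 7.88 in B tumors. Stab1, a scavenger receptor of sinusoidal vessels and macrophages, was at 6.84, 6.48 and 6.72, against 7.78, 7.81, 7.45, 7.09 and 8.67 in B tumors (difference -1.08, SE 0.31). Lyve1 and Stab1 are counted in both the macrophage and the lymphatic list. The VEGF receptor gene Kdr (-0.72) and the endothelial diaphragm gene Plvap (-0.74) did not overlap, and the junction gene Pecam1 (-0.78) did. Of the transcription factors in the epithelial mesenchymal transition list, Twist2 was lower by -1.16 without overlap, and the tight junction gene Cldn1 of the same list was at 11.10, 11.46 and 11.11 in B;p38α tumors, against 10.04, 10.40, 10.22, 11.09 and 9.86 in B tumors (difference 0.90). B replicate 4 again lay next to the deleted tumors for Cldn1. Epor, the erythropoietin receptor gene, had a difference of -0.71 without overlap.

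**Figure D3:**
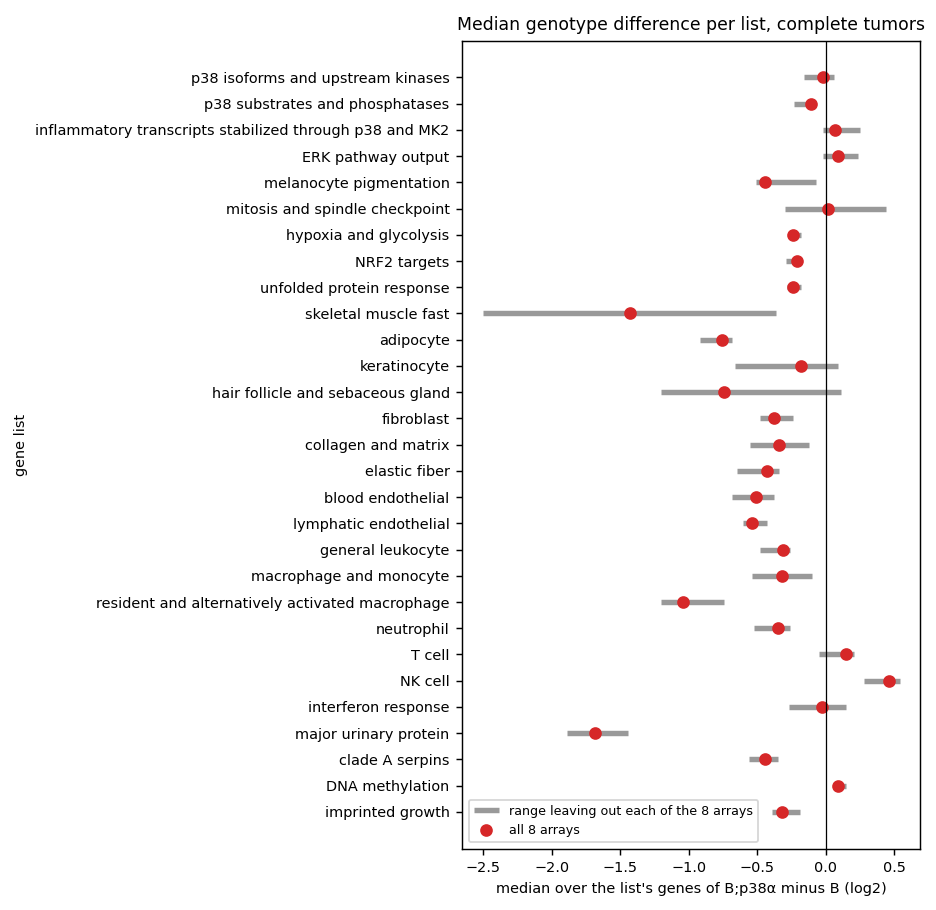
Median log2 difference (B;p38α minus B) over the measured genes of each list in complete tumors (red points), with the range of that median when each of the 8 arrays is left out in turn (gray bars). The resident macrophage median stays at or below -0.74 and the major urinary protein median at or below -1.44, muscle ranges between -2.50 and -0.36, and the keratinocyte and hair follicle bars cross 0.

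Genes of the major urinary proteins, secreted lipocalins that carry pheromones in mouse urine, were lower in all 9 of those measured (median -1.68), 7 at an unadjusted p under 0.05 and 6 without overlap. The list means were 6.15, 5.74 and 5.57 in B;p38α tumors, against 6.66, 8.43, 6.58, 7.69 and 7.25 in B tumors. Mup9 was at 8.17, 7.76 and 7.46, against 9.57, 11.89, 8.83, 11.05 and 9.64 in B tumors (difference -2.40, SE 0.60, adjusted p = 0.707). B replicates 2 and 4 were highest, and every B tumor lay above every B;p38α tumor. Mup19 (-2.15), Mup2 (-2.10) and Mup3 (-1.68) separated likewise, and the groups of Mup22 (-2.06) touched at 9.70. These genes are near-identical copies, so their rows may share signal and are not 9 independent observations. The promoter stretches of Mup9, Mup19 and Mup2 are shown because the members had like values across the arrays and their RefSeq promoters (GRCm38.p6, 300 bases each) were 94.8% to 96.7% identical. Each stretch lies on the minus strand and reads 5′ to 3′, with the TATA motif TATATAAGG in capitals.
Mup9 (chr4:60421929-60422028): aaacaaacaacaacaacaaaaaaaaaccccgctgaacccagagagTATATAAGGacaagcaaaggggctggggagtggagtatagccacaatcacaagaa
Mup19 (chr4:61782201-61782300): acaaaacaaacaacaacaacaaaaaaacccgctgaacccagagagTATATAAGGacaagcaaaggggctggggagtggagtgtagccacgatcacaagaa
Mup2 (chr4:60139829-60139928): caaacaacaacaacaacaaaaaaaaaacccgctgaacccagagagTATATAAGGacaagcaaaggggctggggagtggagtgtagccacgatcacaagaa
On either strand this motif occurred in 5 of the 6 Mup promoters in the RefSeq table, against 0.34% of all 27025 promoters.

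The clade A serpins, another family of secreted proteins, were lower in 10 of 12 (median -0.44, 4 at an unadjusted p under 0.05). Serpina1a, a gene for the protease inhibitor alpha-1 antitrypsin, was at 5.60, 6.23 and 5.91 in B;p38α tumors, against 10.06, 9.33, 5.62, 10.91 and 10.30 in B tumors (difference -3.33, SE 0.99, adjusted p = 0.716). B replicate 3 alone lay at the level of the deleted tumors. Without it the difference was -4.24 with an adjusted p of 0.0117, a pass that rests on omitting the overlapping array and is no support for the difference. Serpina1b (-3.24) and Serpina1e (-1.45), near-identical copies, followed the same arrays. In CD45- cells, where 0.0103% of genes passed, Serpina1a differed by -5.60 and passed (adjusted p = 0.00606 by limma), and in CD45+ cells it differed by -4.01 (adjusted p = 0.0738). The tissue kallikreins as a family had a median of -0.12, with Klk1b8 at -1.08 beside Klk1b22. DNA methylation genes were slightly higher (9 of 12, median 0.09), led by the methyltransferase genes Dnmt3b (0.73) and Dnmt1 (0.62) and the demethylase gene Tet1 (0.65). Imprinted growth genes were lower in 12 of 14 (median -0.32), among them Dlk1, a growth inhibitor of progenitor cells, at 6.02, 5.07 and 5.21 in B;p38α tumors, against 6.55, 6.69, 6.39, 6.57 and 7.12 in B tumors (difference -1.23, SE 0.25), and Ndn, which encodes necdin, at -0.60.

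Most of the genes that passed without B replicate 4 were type 1 vomeronasal receptors, pheromone receptors of the vomeronasal organ, from chromosome 7. The family was chosen after its values were seen, so it is described without a test. On chromosome 7, 97 such genes were measured, and their mean level was 5.61, 5.03 and 5.41 in B;p38α tumors, against 3.94, 4.19, 4.07, 5.79 and 3.85 in B tumors. B replicate 4 was the highest of the 8 arrays and the other 4 B arrays lay below every deleted tumor. The 105 measured family members on other chromosomes averaged 3.27, 3.40 and 3.29 in B;p38α tumors, against 3.28, 3.44, 3.29, 3.25 and 3.35 in B tumors. With all 8 arrays 71 of the 97 were higher (median 0.34), and 36 higher genes and 1 lower gene had an unadjusted p under 0.05. Without B replicate 4, 34 of the 97 were among the 42 higher genes that passed. These passes rest on omitting the 1 B array at the level of the deleted tumors, so they are no independent support. Vmn1r148 and Vmn1r100 held the same values in each of the 8 arrays, so the counts are not of independent observations. Vmn1r118 was at 10.19, 8.97 and 10.13 in B;p38α tumors, against 5.24, 5.61, 5.88, 10.82 and 4.73 in B tumors (difference 3.31, SE 1.18, adjusted p = 0.733). Vmn1r127 and Vmn1r142 showed the same arrays high, with differences of 3.22 and 3.24. In sorted cells the median of the 97 genes was -0.49 (CD45+) and -0.82 (CD45-), beside -0.37 and -0.72 for the members on other chromosomes.

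The promoter stretches of Vmn1r118, Vmn1r127 and Vmn1r142 are shown because these 3 had the largest differences without B replicate 4 and closely similar promoters. Promoter identity does not show whether their rows share signal, which was not tested. Their RefSeq promoters (GRCm38.p6) were 99.0% identical between Vmn1r127 and Vmn1r142 and 90.2% to 90.5% identical between Vmn1r118 and the other two. Capitals mark CCTAATCATC, a stretch common to the 3 that was picked from their sequences, and all lie on the minus strand.
Vmn1r118 (chr7:20912330-20912429): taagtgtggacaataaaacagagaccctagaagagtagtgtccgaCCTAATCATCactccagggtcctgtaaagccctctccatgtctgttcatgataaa
Vmn1r127 (chr7:21319840-21319939): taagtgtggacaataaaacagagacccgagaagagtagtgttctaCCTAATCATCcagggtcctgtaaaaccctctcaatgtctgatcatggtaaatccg
Vmn1r142 (chr7:22164014-22164113): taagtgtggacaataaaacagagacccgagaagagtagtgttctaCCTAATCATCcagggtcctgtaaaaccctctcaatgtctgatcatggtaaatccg
On either strand it occurred in 16 of 34 available promoters of the 36 genes higher at an unadjusted p under 0.05. It occurred in 7 of 53 available promoters of the other 61 genes. The share was 0 of 91 promoters of family members on other chromosomes and 0.167% of all 27025 promoters. The 3 genes it was picked from are among the 16, and the promoters belong to related copies. These counts therefore do not test a link between the stretch and the genotype difference. Genes outside the family, also chosen after their values were seen, had the same arrays high, such as Rab27b, a small GTPase of vesicle secretion, at 9.59, 10.22 and 10.13 in B;p38α tumors, against 7.68, 6.96, 6.07, 11.01 and 6.26 in B tumors, and Glyat, a glycine acyltransferase, at 7.96, 9.37 and 8.41, against 4.85, 6.26, 5.92, 9.23 and 6.03. Klrb1c was likewise high in all B;p38α tumors and in B replicate 4.

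The sorted cells are separate arrays, though the labels do not say whether tumors were shared, and they show which differences of complete tumors were also present elsewhere. Of the 30 genes named by the rule, 25 differed in the same direction in CD45+ cells and 26 in CD45- cells, against 48.8% and 51.1% of all genes. At an unadjusted p under 0.05 in the same direction there were 9 of 30 in each, against 5.36% of all genes in CD45+ and 3.69% in CD45- cells. The 9 included 4 Mup genes in CD45+ cells and 5 in CD45- cells, near-identical copies that do not count as separate observations. By direction, 5.69% of all genes were higher and 5.08% were lower at this p in CD45+ cells, and 3.5% higher and 3.27% lower in CD45- cells, with 0 genes past adjustment in CD45+ cells. Hjurp, Mup9, Mup19, Mup2, Mup22 and Serpina3n, 6 in all, met this in all 3 compartments. Hjurp differed by 1.57 in complete tumors, 1.55 in CD45+ cells and 1.49 in CD45- cells, and Serpina3n by -1.55, -1.27 and -1.73. Mup19 differed by -2.15, -3.57 and -4.33. Myh4, in contrast, differed by -0.53 and 0.12, and Lyve1 by 0.47 and -0.57, in the CD45+ and CD45- cells. Sfrp2 had the opposite sign in both (0.91 and 1.26). The resident macrophage list had a median of 0.07 in CD45+ and -0.93 in CD45- cells. Some lists had the opposite sign in both, such as the imprinted growth list (0.51 and 0.59, against -0.32 in complete tumors) and the elastic fiber and NK cell lists described above. Values in B CD45+ replicate 2 and B CD45- replicate 1 spanned the narrowest interquartile ranges of their compartments (3.41 and 2.95). The part of this in the sorted-cell medians of these lists was not tested. The blood endothelial (-0.66 and -0.27), general leukocyte (-0.18 and -1.24) and major urinary protein lists (-1.03 and -1.39) had negative medians in all 3 compartments. Leukocyte genes in CD45- cells depend on leukocytes that the separation left behind. The leukocyte and macrophage medians there may therefore reflect the purity of the arrays, which was not tested. When the difference between compartments was itself tested, 0 of 19504 genes passed for complete tumors against CD45+ cells (limma, smallest adjusted p 0.183, 926 genes or 4.75% positive and 936 or 4.8% negative without adjustment) and 0 against CD45- cells (smallest adjusted p 0.606, 677 genes or 3.47% positive and 905 or 4.64% negative without adjustment).

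**Figure D4:**
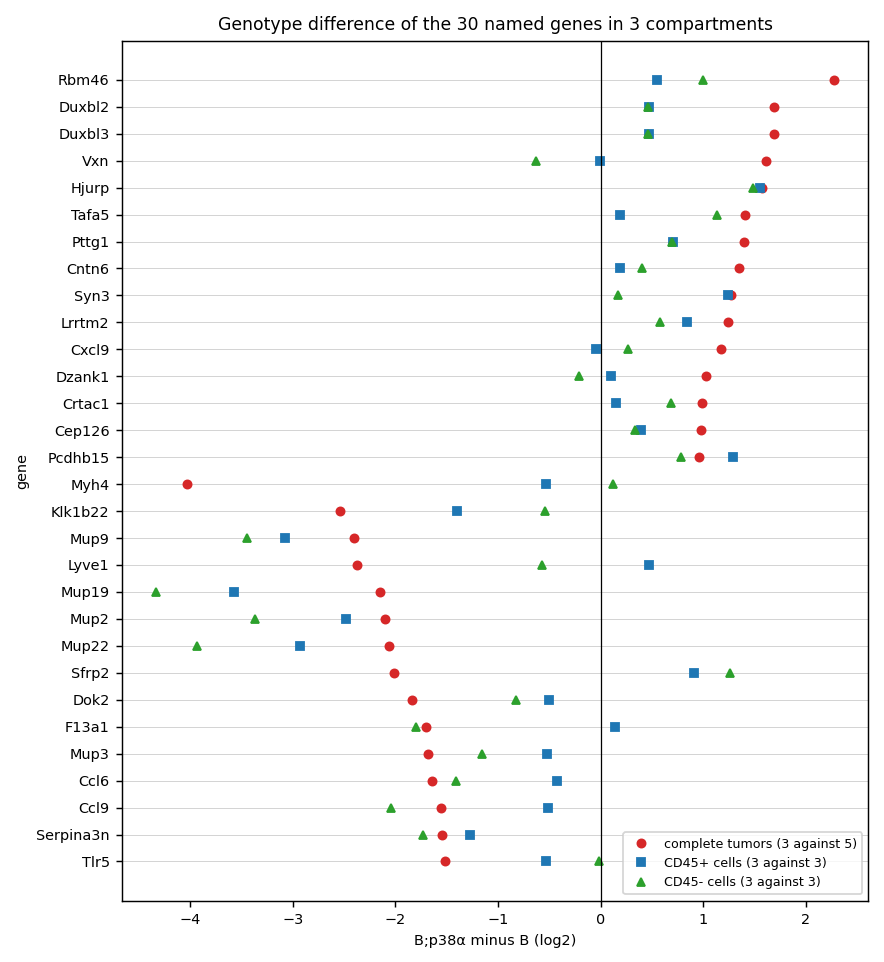
Log2 difference (B;p38α minus B) of the 30 named genes in complete tumors (red circles, 3 against 5 arrays), CD45+ cells (blue squares, 3 against 3) and CD45- cells (green triangles, 3 against 3). Hjurp and Serpina3n have nearly equal differences in the 3 compartments, the Mup genes are further from 0 in sorted cells except Mup3, and Myh4, Lyve1 and Sfrp2 lie further below 0 in complete tumors than in either kind of sorted cells, a difference that passed adjustment for none of them.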

How the data were processed

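Expression was measured on single-color arrays of biotin-labeled cDNA. The deposited table holds log2 expression levels. The submitters' processing notes name RMA as the authors' tool, without a version or the set of arrays it was run on. The table had 21244 rows without missing values. By the platform annotation 19570 rows had 1 gene symbol and 1674 had none. All named rows matched RefSeq (GRCm38.p6) by entrez number. Where a symbol had several rows, the one brightest on average across the 20 arrays stood for it, which left out 66 rows and gave 19504 genes, with no filter on dim genes.

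Groups came from the sample titles. B;p38α minus B differences were fitted with limma 3.58.1 (lmFit, then eBayes, R 4.3.3) on the 8 complete tumor arrays, with Benjamini-Hochberg adjustment over all genes at 0.05. Differences between compartments were tested as interaction contrasts. Mapk14 was also tested by exact permutation (scipy 1.17.1). The fit was tested on simulated data. Figures were drawn with matplotlib 3.10.9.

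The arrays, the 55 gene lists (955 genes, 865 of them measured) and the tests were chosen with earlier results of these data known. Named genes are Mapk14 and its 8 nearest measured genes, the 15 largest differences each way among genes with non-overlapping groups and an unadjusted p under 0.01 (no gene passed adjustment), and up to 4 members per list with the largest absolute difference. A list is described by its counts and median beside those of all genes. Alternatives were a joint fit of all 6 groups, a replicate block, a filter on genes under the 30th percentile, quantile normalization, array weights, every row, Y-linked expression as a covariate, omission of the B arrays high in it, a robust variance with trend, and omission of each array in turn. A fit without the 2 arrays highest in hair shaft genes was added after seeing the data.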

Additional observations from a re-analysis of the deposited data

Results flagged for a closer look

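Among the 5 B complete tumors, the gap of 1 array to the nearest other, divided by the whole range, exceeded Dixon's critical value of 0.71 for 16 of 177 genes and list means examined (9.04%). Chance flags about 1 in 20 groups, but this share cannot be set against that rate, since some genes, the vomeronasal receptors among them, were chosen after their values were seen. B replicate 4 stood apart for Vmn1r118 (gap over range 0.81, 10.82 against 4.73 to 5.88 in the others), Vmn1r127 (0.81), Vmn1r142 (0.73), Dzank1 (0.75, 5.45 against 4.53 to 4.75) and Hspb1 (0.83, 8.33 against 9.47 to 9.70). B replicate 1 stood apart for the keratinocyte list (0.83), the hair follicle and sebaceous gland list (0.71, 8.85 against 4.63 to 5.85) and Mapk13 (0.93, 6.73 against 5.36 to 5.45), the p38δ gene also known from epithelia. B replicate 2 was high for Gstm1 (0.78) and Ndn (0.81) and low for Map2k6 (0.71) and the DNA methylation list (0.83). B replicate 5 was high for Gadd45g (0.89), Twist2 (0.78) and the imprinted growth list (0.75), and B replicate 3 was low for Fbln5 (0.76, 8.32 against 9.49 to 9.86).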

How the results depend on the processing

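In complete tumors 0 genes passed with all arrays, and 0 passed with all 6 groups in 1 fit, without dim genes, after repeated quantile normalization, with array weights, with every row, with the Y-linked covariate, with a trended robust variance, and without the 2 arrays high in hair shaft genes. Leaving out each array in turn gave 0 to 49 genes, 49 without B replicate 4 and 2 without B replicate 3 (Fbln5, Serpina1a). Without both B arrays of high Y-linked expression 41 passed, of which 37 also passed without B replicate 4 alone. With the replicate number as a block 27 passed (26 higher, 20 of them chromosome 7 vomeronasal receptors), but the samples share only a number, and same-numbered deviations from the group means correlated at 0.098, -0.057 and -0.037. For complete tumors against CD45+ cells the counts were 32 with the replicate block and 0 to 49 when each array was left out, with 49 without B complete replicate 4, 30 without B CD45+ replicate 1 and 2 without B;p38α CD45+ replicate 3. Against CD45- cells leaving out arrays gave 0 to 10, the highest without B complete replicate 4. Mapk14 was lower under every alternative run (between -0.35 and -0.16) and passed under none. Of the neighbors of Mapk14, all near 0, signs turned for Clpsl2 (-0.01 with the Y-linked covariate, -0.01 without the Y-high arrays, -0.08 without the arrays high in hair shaft genes, -0.07 when B replicate 3 and -0.06 when B;p38α replicate 1 was left out), Lhfpl5 (-0.00 with the covariate, -0.01 without the Y-high arrays, -0.12 to 0.17 leaving out each array), Mapk13 (0.10 with the covariate, 0.14 without the Y-high arrays, 0.04 without the hair-high arrays, -0.23 to 0.16 leaving out each array), Brpf3 (-0.00 with the covariate, -0.03 without the Y-high arrays, -0.02 to 0.15 leaving out each array) and Pnpla1 (-0.01 with the replicate block). Among the 122 genes recomputed, no others turned their sign under the alternatives that gave a value, and some dim genes had none where dim genes were left out. Of 935 list medians under alternatives, 14 moved by more than the spread between arrays. The number of arrays limits every comparison, and signal over background was not used here.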
